A study of Mus musculus with 16 samples.

Results

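The comparison was the genotype by day interaction of the osteogenic response: for each gene, the log2 change from day 3 to day 7 in cells labelled knockout (KO) for Zfp384 minus the same change in wild type (WT) cells. It was taken over every gene of the count table, 13474 genes in all 16 libraries of the series, and no gene was chosen by its value. A positive interaction means that RNA rose more, or fell less, in the libraries labelled KO, and a negative one the reverse. Interactions are on the log2 scale and carry an approximate standard error. Genes were then sorted into those that moved in opposite directions in the 2 genotypes, those that moved in 1 genotype only, and those that moved in both.

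The cells were mesenchymal stem/progenitor cells (MSPCs) of C57BL/6 mouse bone marrow at passage 5-10, either WT or labelled KO for Zfp384 (Nmp4), a zinc finger transcription factor. The WT day 3 and KO day 3 groups grew from 25 cells per mm2 in MesenCult medium with its stimulatory supplement and received no inducer. The WT day 7 and KO day 7 groups grew from 62 cells per mm2 in α-MEM with serum, and from 48 hours they also had 5 µg/mL ascorbic acid, 10 nM dexamethasone and 10 mM glycerol 2-phosphate. Each group held 4 libraries, described by the submitters as technical replicates of 1 biological replicate. The p-values here therefore describe the spread between technical replicates alone, and genotype cannot be told apart from culture. Day cannot be told apart from medium, seeding density and supplements.

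Marrow stromal cells become osteoblasts when ascorbic acid allows collagen to be hydroxylated and folded, a glucocorticoid drives stromal cells toward the bone lineage, and an organic phosphate feeds mineral deposition. Early osteoblasts leave the cell cycle, make alkaline phosphatase and collagen, and later secrete bone sialoprotein and osteocalcin. That output loads the endoplasmic reticulum, whose sensors IRE1, PERK and ATF6 raise chaperones and, through ATF4, genes of amino acid supply.

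Total counts per library were between 31285188 and 47635039. Levels are given as CPM, that is, counts scaled by library size, which compare 1 gene between libraries but not genes of different length. Zfp384 itself (chromosome 6, 125009238 to 125037870, plus strand) had a level of 81.8 ± 1.54 CPM in the WT day 3 group, 88.1 ± 3.17 in WT day 7, 91.5 ± 1.74 in KO day 3 and 117 ± 5.04 in KO day 7 (mean ± SD, n = 4). Zfp384 counts therefore do not set the KO libraries below WT, and the genotypes are taken from the labels alone. Of 25 stromal progenitor markers 25 were measured, with a summed level of 8496 to 8752 CPM in WT day 3, 10620 to 11310 in WT day 7, 4342 to 4560 in KO day 3 and 3873 to 4096 in KO day 7. Of 20 macrophage markers 18 were measured, at summed levels of 168 to 187, 186 to 212, 41.7 to 50.3 and 23.6 to 28.6 CPM in the same order of groups. Of 14 endothelial markers 4 were measured, at up to 29.3 CPM in sum in any library, and of 13 lymphoid and erythroid markers 1 was. These other cell types move with genotype and day, and their part in the results was not tested.

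The interaction passed the test for most genes. At a Benjamini-Hochberg adjusted p under 0.05 in edgeR's quasi-likelihood test, 8889 of 13474 genes (66.0%) were called, 4378 (32.5%) with the higher change in the libraries labelled KO and 4511 (33.5%) with the lower. With a size of at least 2-fold as well, 2189 genes (16.2%) were called, 1241 (9.21%) higher and 948 (7.04%) lower. The day response itself was wider in the libraries labelled KO. Of all 13474 genes, 32.3% rose and 34.9% fell by that test in WT, and 40.6% rose and 39.3% fell in the libraries labelled KO, where 1682 genes (12.5%) rose and 1185 (8.79%) fell at least 2-fold, against 793 (5.89%) and 510 (3.79%) in WT. The median absolute log2 change was 0.45 in the libraries labelled KO and 0.24 in WT, and that of the interaction was 0.37.

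Of the 804 genes that moved at least 2-fold in both genotypes, 722 moved in the same direction and 82 in opposite directions. The same-direction genes were 55.4% of those that moved in WT and 25.2% of those that moved in the libraries labelled KO. Over the 11217 genes with at least 1 CPM in every group mean, the 2 day responses, which share no library, had a Pearson r of 0.56 and a Spearman rho of 0.55 across genes, which are not independent replicates.

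The 82 genes of opposite direction split into 57 that rose in the libraries labelled KO and fell in WT, and 25 that did the reverse. A gene was put in a class of 1 genotype only when it moved at least 2-fold there, changed by a log2 of under 0.5 in the other genotype, and had a called interaction of at least 2-fold. On that rule 482 genes were induced in the libraries labelled KO only, of which 41 stayed under 0.5 CPM in WT at both days, and 287 were repressed there only. In WT only, 75 genes were induced and 80 repressed. A further 154 were induced in both but more in the libraries labelled KO, 37 in both but more in WT, and 415 shared their direction with an interaction under 2-fold. These class counts depend on where the limits for a moved and a still gene are set.

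**Figure D1:**
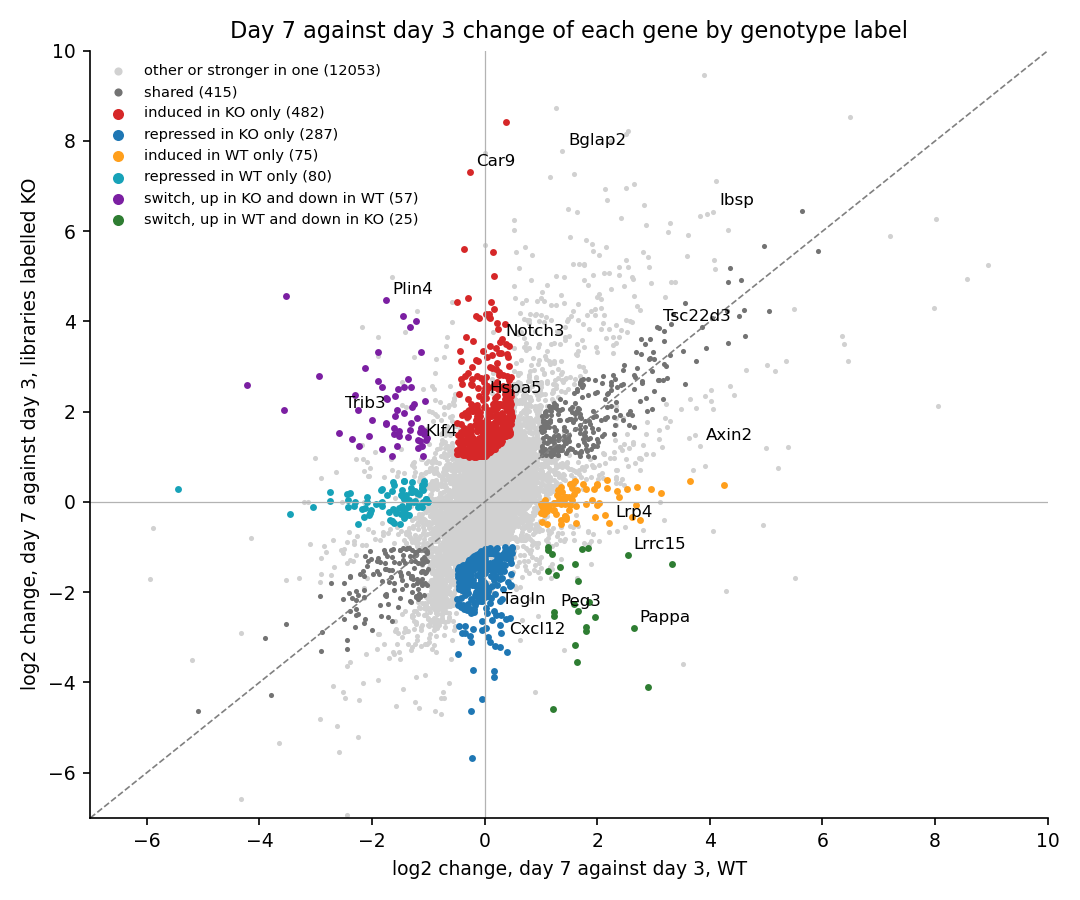
Each point is 1 of 13474 genes, with the log2 change from day 3 to day 7 in WT on the x axis and in the libraries labelled KO on the y axis; colours mark the response classes with their gene counts, and the dashed line marks equal change. The 482 genes induced in the libraries labelled KO only form the column above 0 on the x axis, and the 57 and 25 genes of opposite direction fill the upper left and lower right.

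The unfolded protein response, the program that raises chaperones and disposal factors of the endoplasmic reticulum, rose in the libraries labelled KO as a whole list. All 23 listed genes were measured, and all 23 had a called higher change in the libraries labelled KO, 18 of them at least 2-fold, with a median log2 interaction of 1.52 against -0.0013 over all genes. All 23 rose there (median log2 change 1.37), while in WT 7 rose and 11 fell (median -0.05). By class, 17 were induced in the libraries labelled KO only.

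Hspa5 (chromosome 2, 34772090 to 34776529, plus strand, in mm10 coordinates of the deposited table) encodes BiP, the main chaperone of the endoplasmic reticulum. It was at 821, 823, 827 and 830.5 CPM in the WT day 3 libraries and at 781, 782, 800.2 and 863 CPM in WT day 7. In the libraries labelled KO it was at 1427, 1419, 1432 and 1457 CPM at day 3 and reached 7418, 6557, 6691 and 6983 CPM at day 7. The WT days overlapped, and each KO day 7 library was several times above every other library. The log2 change was -0.03 ± 0.04 in WT and 2.27 ± 0.04 in the libraries labelled KO, an interaction of 2.30 ± 0.05 (approximate SE; edgeR quasi-likelihood, Benjamini-Hochberg adjusted p = 6.53e-24). Creld2, a secreted stress protein of the endoplasmic reticulum, was at 47.01, 50.6, 49.1 and 47.4 CPM in WT day 7 and at 299, 280, 247 and 280.5 CPM in KO day 7, from 55.2, 55.6, 52.3 and 55.1 CPM and 66.98, 66.3, 63.1 and 69.5 CPM at day 3. The KO day 7 libraries were again the only high ones, with an interaction of 2.23 ± 0.06. Sdf2l1, a partner of BiP, had an interaction of 2.63 ± 0.08 and Crebrf, a regulator of the unfolded protein response, 2.04 ± 0.10. The sensors themselves moved less, with log2 interactions of 0.22 for Ern1 (IRE1), 0.59 for Atf6 and 0.75 for Eif2ak3 (PERK), and the spliced target of IRE1, Xbp1, had 1.23; these 4 are named for their role, after their values were seen.

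Of the 23 genes, 20 had a promoter in the RefSeq table (GRCm38.p6, the mm10 build), each read from 250 bases before to 50 bases after the start. The endoplasmic reticulum stress element, searched on both strands as CCAAT and CCACG with any 9 bases between them, was found in 8 of these 20 (40%) and in 15 of 10162 promoters of the table's genes (0.148%). Of those 15 genes, 14 had a called higher change in the libraries labelled KO and 1 a lower one, 8 at least 2-fold higher (53.3%, against 9.06% of all 10162), with a median log2 interaction of 1.10. As 8 of the 15 are genes of the list, most of this repeats the list's own values: 6 of those 8 were at least 2-fold higher, and of the 7 others 2 were at least 2-fold higher and 1 at least 2-fold lower. Outside the list the element was in the promoters of Derl3, Alg12, Adcy3, Acacb, Pan2, Hnrnpa3 and Spats2l, which are named after their values were seen, and Spats2l was the 1 gene with a lower change (log2 interaction -1.01). The 250 bases before the start are printed for Hspa5 and Creld2, whose interactions are above, and for Hsp90b1 (GRP94, log2 interaction 1.74, chosen after its values were seen), which holds 2 matches. They lie at chr2:34771840-34772089 (plus strand), chr15:88819396-88819645 (plus) and chr10:86705445-86705694 (minus), run 5′ to 3′ on the gene's strand, and have the matches in capitals.
Hspa5: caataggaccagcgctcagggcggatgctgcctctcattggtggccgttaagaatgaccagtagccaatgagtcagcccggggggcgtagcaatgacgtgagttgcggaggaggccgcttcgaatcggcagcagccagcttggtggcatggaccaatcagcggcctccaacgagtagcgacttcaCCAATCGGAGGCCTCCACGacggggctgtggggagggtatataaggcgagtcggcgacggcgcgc
Creld2: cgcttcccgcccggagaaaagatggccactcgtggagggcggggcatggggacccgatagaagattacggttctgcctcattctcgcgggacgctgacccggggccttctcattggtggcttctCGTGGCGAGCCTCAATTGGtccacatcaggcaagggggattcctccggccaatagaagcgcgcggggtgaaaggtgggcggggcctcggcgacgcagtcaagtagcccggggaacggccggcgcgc
Hsp90b1: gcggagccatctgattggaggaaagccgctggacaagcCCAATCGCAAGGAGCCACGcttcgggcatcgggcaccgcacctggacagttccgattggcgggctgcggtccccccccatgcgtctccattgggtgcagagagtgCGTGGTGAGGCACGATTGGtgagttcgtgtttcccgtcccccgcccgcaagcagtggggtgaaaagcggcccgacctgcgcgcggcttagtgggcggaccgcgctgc

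The integrated stress response, in which phosphorylated eIF2 slows translation while ATF4 raises genes of amino acid supply, moved in the same direction. Of 27 listed genes 25 had a called higher change in the libraries labelled KO, 17 at least 2-fold, and 0 a lower one (median log2 interaction 1.12). There 26 rose and 1 fell (median log2 change 0.90), while in WT 5 rose and 15 fell (median -0.31). The 1 that fell, named after its value was seen, was the serine synthesis gene Psat1 (log2 change -0.28). Trib3 (chromosome 2, 152337425 to 152344060, minus strand), a pseudokinase induced by ATF4 and CHOP, was at 8.24, 7.81, 8.56 and 7.93 CPM in WT day 3 and at 2.44, 3.44, 2.50 and 2.38 CPM in WT day 7. KO libraries had it at 81.7, 78.4, 82.9 and 77.8 CPM at day 3 and 319.8, 300.1, 276 and 301 CPM at day 7. Trib3 thus fell in WT and rose in the libraries labelled KO with no overlap between days in either, a switch in direction with an interaction of 3.50 ± 0.11 (edgeR quasi-likelihood, Benjamini-Hochberg adjusted p = 8.48e-22). Ddit3, which encodes the death-promoting factor CHOP, stayed at 30.8, 28.9, 31.96 and 29.7 CPM and 30.4, 34.04, 29.9 and 31 CPM in WT. It went from 62.9, 56.95, 63 and 66.7 CPM to 419, 369.9, 326 and 375 CPM in the libraries labelled KO, an interaction of 2.53 ± 0.09. Only the KO days were apart. Chac1, a glutathione-degrading enzyme, fell from 5.10 to 2.97 CPM in WT and rose from 31.98 to 91.5 CPM in the libraries labelled KO, and Stc2, a secreted stanniocalcin, fell from 0.741 to 0.0958 CPM in WT and rose from 18.01 to 26.03 CPM (group means).

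The C/EBP-ATF element, searched as TGATGNAA on both strands, was in 9 of the 24 promoters of listed integrated stress response genes (37.5%) and in 217 of 10162 in the table (2.14%). Of the 217 genes, 18% had an interaction at least 2-fold higher, against 9.06% of all promoters, and 6.45% at least 2-fold lower, against 6.67%. As 9 of the 217 are genes of the list, part of this repeats the list's own values. Examples are printed in the same way, from chr2:119350992-119351241 (plus strand) for Chac1 and chr3:50443614-50443863 (minus strand) for Slc7a11, the cystine transporter gene (log2 interaction 2.21, chosen after its values were seen), whose promoter holds 2 matches.
Chac1: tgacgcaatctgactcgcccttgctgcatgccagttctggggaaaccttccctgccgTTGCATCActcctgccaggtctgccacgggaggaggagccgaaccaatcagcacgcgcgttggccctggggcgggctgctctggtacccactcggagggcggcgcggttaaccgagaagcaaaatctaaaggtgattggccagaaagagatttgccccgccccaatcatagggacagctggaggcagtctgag
Slc7a11: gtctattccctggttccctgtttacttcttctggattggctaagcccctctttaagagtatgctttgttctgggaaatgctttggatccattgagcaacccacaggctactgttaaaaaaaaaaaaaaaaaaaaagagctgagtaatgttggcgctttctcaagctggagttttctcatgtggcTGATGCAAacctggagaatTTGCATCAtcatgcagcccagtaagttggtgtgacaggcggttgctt

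Hypoxia-responsive genes divided the KO day 7 libraries among themselves. Of 18 listed genes 12 had a called higher change in the libraries labelled KO, 8 of them at least 2-fold (median log2 interaction 0.79). A lower change was called for 3, 1 of them at least 2-fold. These 3, named after their values were seen, were Epas1 (-2.98), Adm (-0.52) and Hif1a (-0.31). Epas1 rose in WT and fell in the libraries labelled KO (log2 changes 1.61 and -1.37). Car9, a carbonic anhydrase that HIF induces, was at 44.4, 68.1, 89.03 and 79.7 CPM in KO day 7 libraries 13, 14, 15 and 16. In every other library it was at 0.588 CPM or less, so the 4 KO day 7 libraries stood alone (interaction 7.57 ± 0.93, edgeR quasi-likelihood, Benjamini-Hochberg adjusted p = 1.11e-05). Ankrd37, an ankyrin repeat protein, was at 7.93, 9.48, 16.01 and 14.1 CPM in the same 4 libraries, at 1.79, 1.72, 1.70 and 1.93 CPM in KO day 3, and fell in WT from a mean of 0.852 to 0.328 CPM. Ndrg1 was at 271, 275, 306 and 302 CPM in KO day 7 and at 51.6, 48.3, 51.5 and 51.4 CPM in KO day 3, and fell in WT from 10.6 to 5.65 CPM. Egln3, a HIF prolyl hydroxylase, fell in WT and rose in the libraries labelled KO (log2 changes -1.52 ± 0.48 and 1.56 ± 0.23). Vegfa, the main angiogenic growth factor, was at 519, 514, 540.5 and 540.3 CPM in KO day 7 against 220.1, 214, 213 and 224 CPM in KO day 3, and its WT means were 127 and 107 CPM. Library 15 was the highest of its group in 15 of the 18 genes and library 13 the lowest in 12. The median coefficient of variation in KO day 7 was 14.5% over 15 hypoxia genes and 5.35% over 10310 genes, against 3.80 and 4.03% in WT day 7. Without library 15 the list's median interaction was 0.72. The cause of the spread was not tested.

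Glycolysis and glucose uptake followed with smaller sizes, 14 of 20 genes higher and 1 lower (5 and 0 at least 2-fold, median log2 interaction 0.56). In WT 11 of the 20 fell and 4 rose, and in the libraries labelled KO 8 rose and 6 fell. Aldoc, the brain-type aldolase, went from 6.38 to 3.51 CPM in WT and from 0.878 to 7.81 CPM in the libraries labelled KO. Slc16a3, the lactate exporter MCT4, fell in WT from 5.44 to 0.493 CPM. Its KO means were 116 CPM at day 3 and 96.5 CPM at day 7, a log2 change of -0.27 ± 0.17, so its interaction is positive on the log scale and -14.6 CPM as a difference of CPM. In KO day 7 libraries 13, 14, 15 and 16 Slc16a3 was at 61.0, 81.8, 120 and 123 CPM, and the KO days overlapped. The hypoxia response element core, ACGTG on either strand, was in 8 of 14 promoters of listed hypoxia genes (57.1%), but also in 25.3% of all. Of the 2566 genes with it, 7.99% had an interaction at least 2-fold higher and 4.79% at least 2-fold lower, both under the shares of all promoters (9.06% and 6.67%). The 250 bases before the start of Car9, at chr4:43506776-43507025 (plus strand), are printed because its interaction was the widest of that list.
Car9: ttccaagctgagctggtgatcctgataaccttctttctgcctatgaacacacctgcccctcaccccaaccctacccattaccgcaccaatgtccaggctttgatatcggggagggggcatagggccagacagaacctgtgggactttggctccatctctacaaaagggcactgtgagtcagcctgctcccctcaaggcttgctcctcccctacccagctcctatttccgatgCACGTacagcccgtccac

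**Figure D2:**
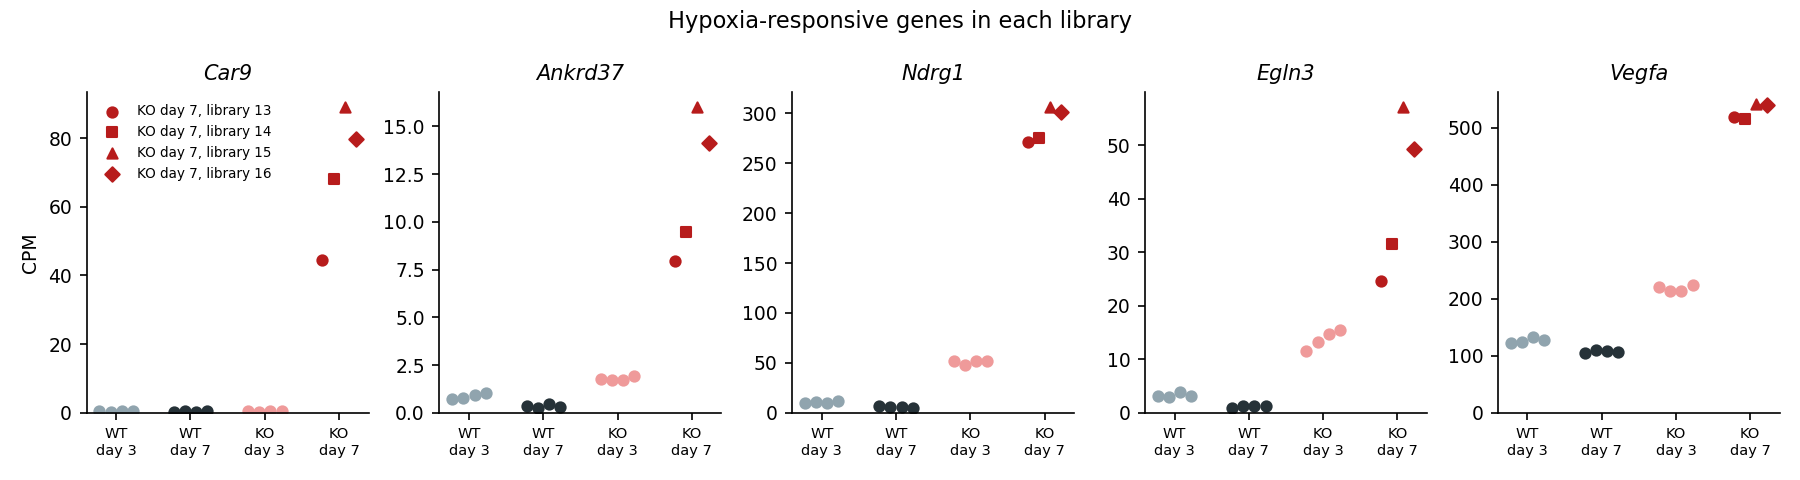
CPM of 5 hypoxia-responsive genes in each of the 16 libraries (y axis), by group (x axis), with the 4 KO day 7 libraries drawn as separate symbols. Car9 spans 44.4 to 89.0 CPM among the KO day 7 libraries, and libraries 15 and 16 are above libraries 13 and 14 in all 5 genes.

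Osteoblast matrix genes rose in both genotypes, and most of them more in the libraries labelled KO. Of 21 measured of 24 listed, 15 had a called higher change there, 11 at least 2-fold, and 2 a lower one (median log2 interaction 1.12). In WT 14 rose and 5 fell (median log2 change 1.07), and in the libraries labelled KO 19 rose and 1 fell (median 1.90). Ibsp (chromosome 5, 104299287 to 104311472, plus strand), bone sialoprotein, which nucleates mineral, was at 27.1, 28.7, 27.3 and 24.9 CPM in WT day 3 and 467, 464, 420.2 and 448 CPM in WT day 7. In the libraries labelled KO it was at 15.7, 11.2, 15.2 and 11.4 CPM at day 3 and 1291, 1207, 1153 and 972 CPM at day 7. The KO libraries were the lower at day 3 and the higher at day 7 without overlap, so the order of the genotypes turned, with an interaction of 2.38 ± 0.15 (edgeR quasi-likelihood, Benjamini-Hochberg adjusted p = 2.06e-09). Bglap2, an osteocalcin gene of mature osteoblasts, showed the same turn, from 1.67, 2.27, 1.95 and 1.98 to 5.31, 5.45, 4.03 and 5.66 CPM in WT and from 0.227, 0.404, 0.471 and 0.424 to 90.6, 90.02, 74.2 and 79.6 CPM in the libraries labelled KO (6.40 ± 0.29). Its neighbour Bglap had 4.81 ± 0.37, and as near-identical copies both are uncertain singly. Dmp1, a phosphoprotein of osteocytes, rose in WT to 8.42, 8.52, 7.51 and 12.2 CPM and in the libraries labelled KO to 33.5, 38.9, 49.7 and 55.1 CPM.

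Alpl, the tissue-nonspecific alkaline phosphatase, was at 129, 137, 123 and 127 CPM in WT day 3 and 142, 121, 123 and 98.2 CPM in KO day 3, where the genotypes overlapped. At day 7 it was at 401, 402, 355 and 406 CPM in WT and 897, 879, 737 and 687 CPM in the libraries labelled KO, which no longer overlapped (1.12 ± 0.15, adjusted p = 1.77e-05 by the same edgeR test). Sparc (osteonectin), a collagen-binding glycoprotein, was induced in the libraries labelled KO only. It was at 2750, 2894, 2853 and 2922 CPM and 2855, 3016, 2905 and 2942 CPM in WT, and at 3948, 3851, 3991 and 3907 CPM and 8697, 8941, 8859 and 8543 CPM in the libraries labelled KO (1.12 ± 0.04). Its WT days overlapped and its KO days did not. Spp1 (osteopontin) had 2.75 ± 0.19, and Col1a1, the main collagen of bone, a small 0.31 ± 0.07. The 2 with a lower change, named after their values were seen, were Postn (periostin, -1.76) and the RANKL decoy receptor Tnfrsf11b (-0.20), and the latter lost its call under some alternatives.

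The transcription factors of the lineage had interactions in both directions. Of 17, 8 had a higher and 7 a lower called change, against 32.5% and 33.5% of all genes. At least 2-fold, 2 were higher and 3 lower, against 9.21% and 7.04%. Runx2, the master regulator, rose in both, by 0.41 ± 0.04 in WT and 0.37 ± 0.04 in the libraries labelled KO, with an interaction of -0.04 ± 0.06 that did not pass (edgeR quasi-likelihood, Benjamini-Hochberg adjusted p = 0.51). Sp7 (osterix) rose by 1.15 ± 0.06 and 1.82 ± 0.07. Dlx3, a homeobox activator of osteocalcin, went from 0.0622 to 5.67 CPM in the libraries labelled KO (group means). In WT it went from 0.0844 to 0.239 CPM, which rests on 14 counts over the day 3 libraries and 35 over those of day 7, and the WT days overlapped. The homeobox genes Msx1 and Msx2 and the osteoblast inhibitor Twist2 were repressed in the libraries labelled KO only, with interactions of -1.48 ± 0.12, -1.74 ± 0.18 and -1.55 ± 0.17. Among 21 collagen chains 16 had a higher and 4 a lower change, led by Col11a2 (2.46 ± 0.14), Col15a1 (2.36 ± 0.17) and Col18a1 (1.99 ± 0.07). Of 19 genes of collagen hydroxylation and crosslinking 10 were higher and 5 lower. The prolyl hydroxylase genes P4ha2 and P4ha1 were higher (1.52 ± 0.14 and 1.20 ± 0.10) and the lysyl oxidase genes Loxl1 and Loxl2 lower (-2.05 ± 0.06 and -1.95 ± 0.07).

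**Figure D3:**
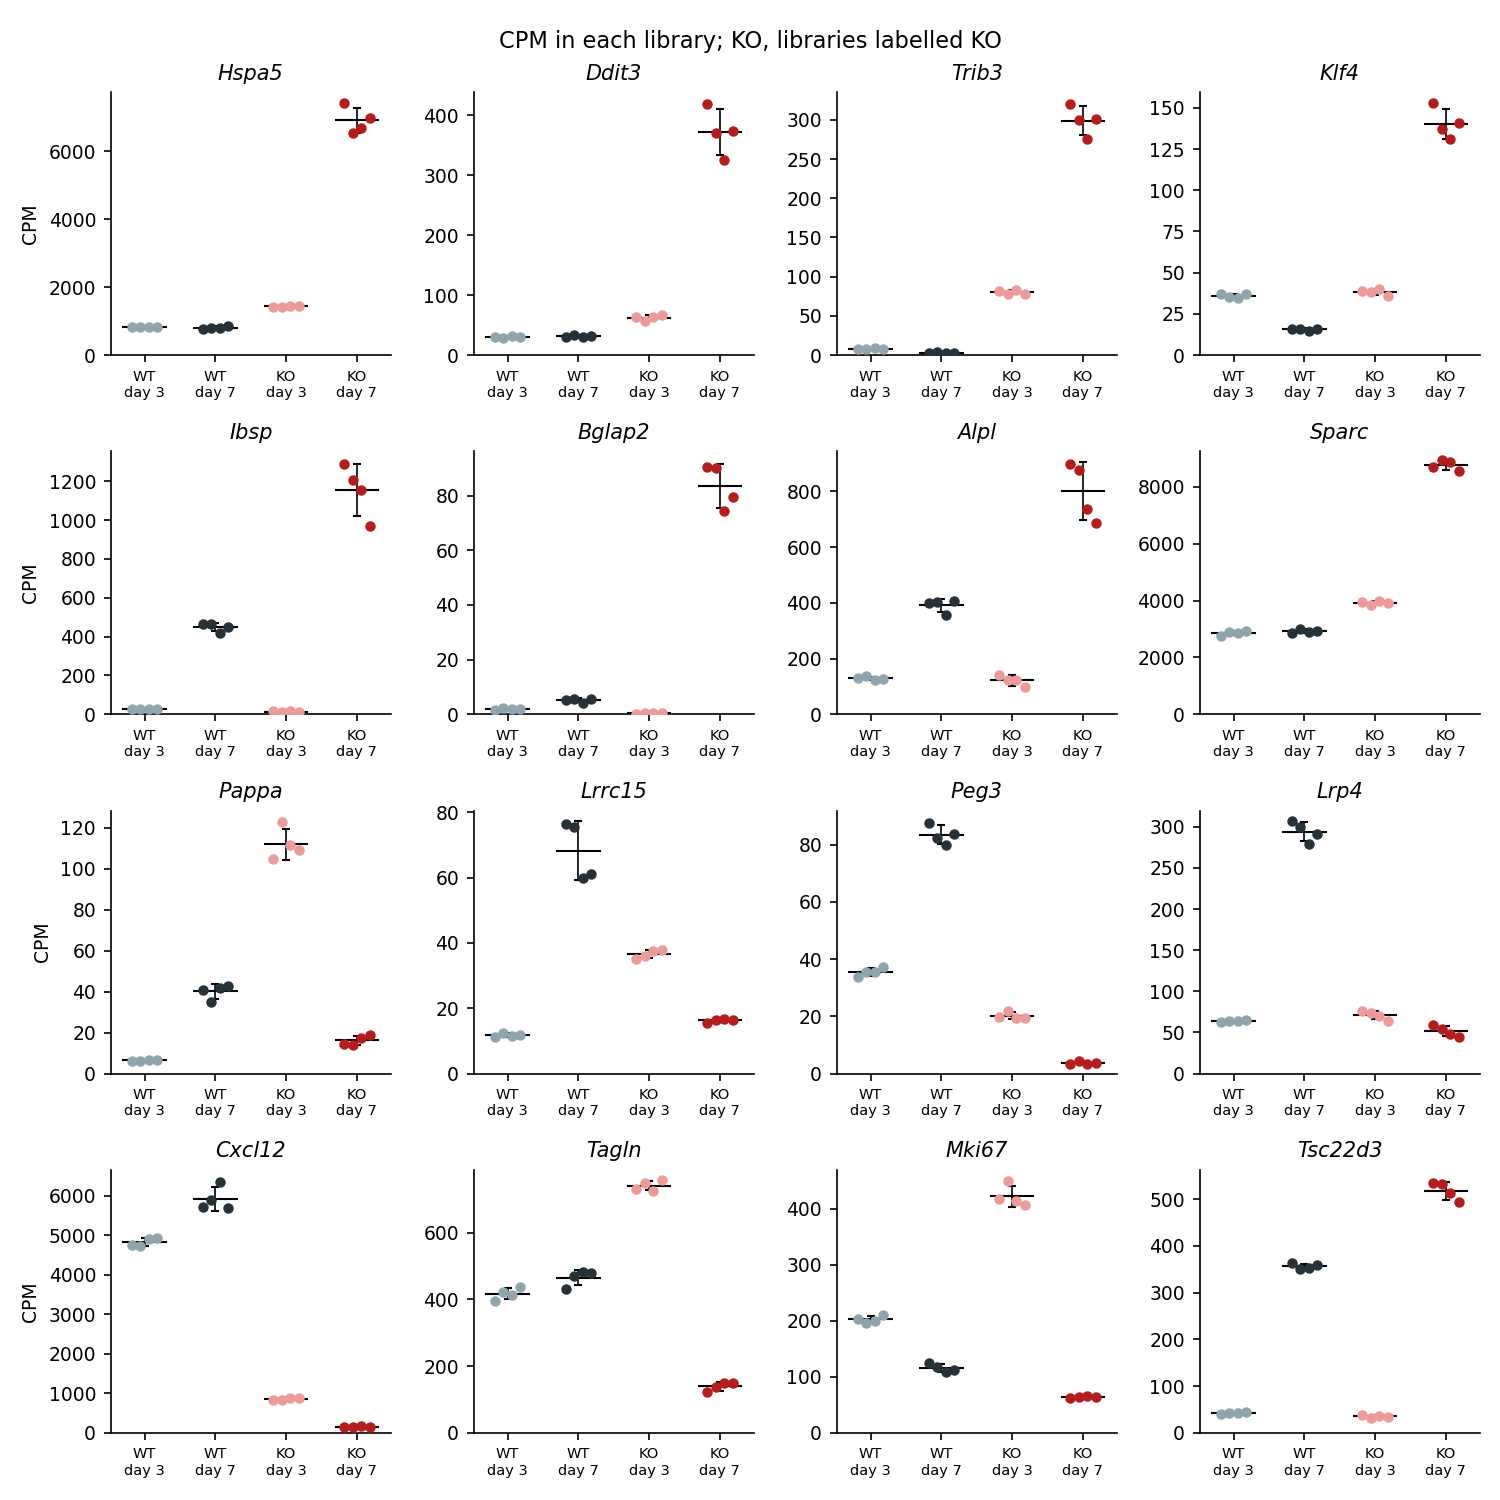
CPM of 16 genes in each library (y axis, from 0, linear) by group (x axis); points are libraries, the horizontal line is the group mean and the bars are 1 SD (n = 4). Hspa5, Ddit3 and Sparc are high in KO day 7 alone, Trib3 and Klf4 fall in WT and rise in the libraries labelled KO, and Pappa, Lrrc15 and Peg3 do the reverse.

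Among genes that switched direction, Klf4 (chromosome 4, 55527137 to 55532475, minus strand), a transcription factor of growth arrest and pluripotency, was at 37.3, 35.1, 34.5 and 36.8 CPM in WT day 3 and 16.1, 15.8, 14.8 and 15.6 CPM in WT day 7. The libraries labelled KO began level with WT, at 39.1, 38.5, 40.2 and 35.9 CPM, and reached 153, 137, 131 and 141 CPM. Klf4 therefore did not separate the genotypes at day 3 and did so without overlap at day 7 (interaction 3.07 ± 0.07, edgeR quasi-likelihood, Benjamini-Hochberg adjusted p = 3.28e-24). Plin4, a lipid droplet protein, fell from 8.26, 7.67, 7.65 and 7.55 to 1.71, 2.14, 3.26 and 2.09 CPM in WT and rose from 1.14, 1.10, 1.07 and 1.01 to 21.6, 23.8, 23.9 and 27.4 CPM in the libraries labelled KO (6.23 ± 0.20). Smoc2, a matricellular protein, fell from 199, 216, 209 and 217 to 95.4, 101, 95.4 and 87.2 CPM in WT and rose from 49.1, 49.8, 43.8 and 45.8 to 146, 140.4, 137 and 129 CPM. In both genes the genotypes exchanged their order between the days. Col10a1, the collagen of hypertrophic cartilage, fell from 12.7 to 1.08 CPM in WT and rose from 2.39 to 9.73 CPM (5.59 ± 0.27). F3, tissue factor, had changes of -1.18 ± 0.03 and 1.21 ± 0.03, and Cyb5r2, a cytochrome b5 reductase, was at 0.0575 CPM in WT day 3 and at 0 counts in WT day 7, against 2.05 and 12.3 CPM.

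In the opposite direction Pappa (chromosome 4, 65124174 to 65357509, plus strand), a protease that frees IGF from its binding proteins, rose in WT from 6.22, 6.13, 6.61 and 6.71 to 40.8, 35.02, 41.8 and 42.96 CPM. In the libraries labelled KO it fell from 105, 123, 112 and 109 to 14.4, 13.9, 17.4 and 18.9 CPM. The genotypes exchanged their order without overlap, with an interaction of -5.44 ± 0.12 (edgeR quasi-likelihood, Benjamini-Hochberg adjusted p = 5.13e-20). Lrrc15, a membrane protein of mesenchymal cells, rose in WT from 11.2, 12.4, 11.5 and 11.9 to 76.5, 75.5, 59.8 and 61.1 CPM and fell in the libraries labelled KO from 35.1, 36.1, 37.4 and 37.8 to 15.4, 16.5, 16.7 and 16.4 CPM (-3.71 ± 0.10). Peg3, an imprinted zinc finger gene, rose in WT from 33.7, 35.6, 35.4 and 37.1 to 87.7, 82.3, 79.8 and 83.7 CPM and fell from 19.8, 22.01, 19.4 and 19.6 to 3.48, 4.42, 3.31 and 3.64 CPM (-3.68 ± 0.09). The libraries labelled KO were already the lower for Peg3 at day 3, so the gap widened, while for Lrrc15 the order turned. Cdh3 (P-cadherin), the amino acid transporter Slc38a4 and the kinase gene Hunk switched in the same way, with -2.89 ± 0.09, -3.41 ± 0.10 and -4.69 ± 0.13. Ankrd1, a target of YAP and TAZ, rose in WT from 0.332 to 1.15 CPM and fell in the libraries labelled KO from 348 to 48.0 CPM (group means).

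Some genes induced in the libraries labelled KO only came closer to their WT level. Notch3, the Notch receptor of mural cells, was at 276, 281, 276 and 278 CPM in WT day 3 and 346, 335, 321 and 334 CPM in WT day 7. In the libraries labelled KO it rose from 5.08, 5.15, 5.78 and 3.79 CPM to 56.9, 59.04, 55.9 and 60.1 CPM, still under every WT library. Its log2 interaction was 3.28 ± 0.08, but as a difference of CPM it was -3.19, because the smaller fold in WT started from a far higher level. Gpx3, a secreted glutathione peroxidase, had the same form, from 1493 to 1679 CPM in WT and from 2.78 to 88.7 CPM (4.83 ± 0.10, -100.1 CPM as a difference of CPM). Cdkn1a, the p21 inhibitor of the cell cycle, stayed at 137, 146, 139 and 139 CPM and 143, 147, 144 and 146 CPM in WT and rose from 20.9, 17.9, 20.6 and 18.2 to 115, 109, 113 and 110.5 CPM (2.48 ± 0.06). Lpl, lipoprotein lipase, rose from 4.97 to 39.2 CPM against 79.5 and 85.3 CPM in WT.

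Counted over the 2189 interactions of at least 2-fold, the genotypes were farther apart at day 7 than at day 3 for 1073 genes (49%). They were closer for 705 (32.2%) and differed by under 2-fold at both days for 340. For 71 they had exchanged their order and were at least 2-fold apart at both days. Genes whose order turned with a smaller gap at either day, such as Smoc2, are counted by the size of the gap alone. Of the 441 genes induced in the libraries labelled KO only that WT also expressed, 184 came closer to WT and 171 moved away. Of the 263 repressed there only, 50 came closer and 161 moved away. The sign of the interaction as a difference of CPM was opposite to that on the log scale for 187 of the 2189 genes (8.54%).

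Genes induced in WT only were fewer. Lrp4 (chromosome 2, 91457531 to 91513901, plus strand), a receptor of the LDL receptor family that binds sclerostin, was at 62.1, 63.9, 64.1 and 64.5 CPM in WT day 3 and 307, 300, 279 and 291 CPM in WT day 7. KO libraries had it at 76.3, 73.6, 70.4 and 63.9 CPM and 58.5, 54.5, 48.5 and 44.9 CPM, so a small difference at day 3 became several-fold by day 7 (interaction -2.67 ± 0.09, edgeR quasi-likelihood, Benjamini-Hochberg adjusted p = 1.22e-16). Adamts9, a proteoglycan-cleaving protease, rose from 9.73, 9.42, 10.7 and 11.1 to 70.9, 66.8, 67.5 and 73.1 CPM in WT and stood at 25.6, 25.3, 26.7 and 26.2 and 17.2, 20.4, 21.5 and 19.4 CPM in the libraries labelled KO (-3.17 ± 0.08). Col6a5, a collagen VI chain, went from 10.6 to 201 CPM in WT and had KO means of 0.349 and 0.454 CPM. Genes repressed in WT only included Artn, a neurotrophic factor, at 15.99 and 2.36 CPM in WT against 4.96 and 5.84 CPM, and the fatty acid carrier Fabp4, at 113 and 37.1 CPM against 3.77 and 4.84 CPM (group means).

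Pathway genes of Wnt, BMP and TGF-beta signalling included single members with wide interactions. Of 27 Wnt genes 8 had a higher and 10 a lower change (median log2 interaction 0.15), near the shares over all genes (32.5% and 33.5%). At least 2-fold, 1 was higher and 5 lower, against 9.21% and 7.04% of all genes. Axin2, the feedback target that reads Wnt/β-catenin activity, rose in WT from 2.43, 2.75, 3.13 and 2.65 to 40.05, 39.9, 37.1 and 38.8 CPM and in the libraries labelled KO from 4.80, 5.09, 5.88 and 4.54 to 11.01, 13.3, 12.1 and 11.3 CPM. It was the higher in KO at day 3 and the higher in WT at day 7, without overlap (-2.59 ± 0.12). The secreted antagonists Sfrp1 and Sfrp2 rose in WT and fell in the libraries labelled KO (-2.50 ± 0.09 and -2.40 ± 0.06), and Rspo2, a Wnt-enhancing ligand, was repressed there only (-2.06 ± 0.07). Of 33 BMP and TGF-beta genes 7 were higher and 19 lower (median -0.20), 4 and 6 of them at least 2-fold. Beside Id4, the 6 were Nog (-2.18), Bmper (-1.87), Tgfbi (-1.51), Bambi (-1.20) and Bmp4 (-1.14), named after their values were seen. Bmp2, a bone-inducing ligand, rose in WT from 1.35 to 3.22 CPM and in the libraries labelled KO from 0.546 to 17.8 CPM (3.73 ± 0.38). Grem1, a BMP antagonist, fell in WT and rose in the libraries labelled KO (2.07 ± 0.08), and Id4, a BMP target, had -2.12 ± 0.17. In the Notch pathway 6 of 10 were higher and 2 lower, 4 and 2 of them at least 2-fold. The ligands Jag1 and Dll1 were induced in the libraries labelled KO only (1.34 ± 0.07 and 2.22 ± 0.21). Of 28 FGF and IGF genes 7 were higher and 16 lower, the latter including the ETS factor Etv4 (-1.91 ± 0.10).

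Contractile genes, which build the actin and myosin apparatus of smooth muscle cells, fell in the libraries labelled KO. Of 21 genes 16 had a called lower change, 10 at least 2-fold, and 0 a higher one (median log2 interaction -0.96). In WT 8 rose and 10 fell (median log2 change -0.07), and in the libraries labelled KO 3 rose and 17 fell (median -1.26). Tagln (transgelin, chromosome 9, 45929628 to 45936058, minus strand), an actin-binding protein of smooth muscle, was at 396, 422, 412 and 435 CPM in WT day 3, 431, 471, 480.2 and 478 in WT day 7, 731, 748, 726 and 756 in KO day 3 and 122, 137, 148 and 149.8 in KO day 7. The libraries labelled KO were the highest at day 3 and the lowest at day 7 (interaction -2.57 ± 0.07, edgeR quasi-likelihood, Benjamini-Hochberg adjusted p = 6.37e-21). Cnn1 (calponin) and Lmod1 (leiomodin) were repressed in the libraries labelled KO only as well (-2.70 ± 0.07 and -2.45 ± 0.07), and Acta2, smooth muscle actin, fell in both and more in the libraries labelled KO (-1.60 ± 0.05). Of 20 genes listed for YAP and TAZ 12 were lower and 5 higher, with the targets Ctgf at -2.72 ± 0.06 and Cyr61 at -1.84 ± 0.05. Beside targets, that list holds Yap1, Wwtr1 (TAZ) and the Tead genes.

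The CArG box, the binding motif of serum response factor, was in 4 of 15 promoters of listed contractile genes (26.7%) and in 138 of 10162 in the table (1.36%). Of those 138 genes 12.3% had an interaction at least 2-fold lower, against 6.67% of all promoters, and 5.07% at least 2-fold higher, against 9.06%. As 4 of the 138 are genes of the list, part of this repeats the list's own values. The 250 bases before the start of Myl9, a myosin light chain gene at chr2:156775214-156775463 (plus strand) with a log2 interaction of -1.92 and chosen after its values were seen, show the match in capitals.
Myl9: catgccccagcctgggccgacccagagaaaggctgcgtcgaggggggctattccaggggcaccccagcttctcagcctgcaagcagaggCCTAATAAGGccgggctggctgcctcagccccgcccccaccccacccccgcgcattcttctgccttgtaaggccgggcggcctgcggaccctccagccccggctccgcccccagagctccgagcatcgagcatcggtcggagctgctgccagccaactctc

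Stromal progenitor markers had 13 lower and 9 higher changes among 25, against 33.5% lower and 32.5% higher over all genes. At least 2-fold, 8 were lower and 4 higher, against 7.04% and 9.21%. The 4 that were at least 2-fold higher, named here after their values were seen, were Cspg4 (2.50), Grem1 (2.07), Ly6a (1.31) and Il7 (1.09). Cxcl12 (chromosome 6, 117168535 to 117181368, plus strand), the chemokine that holds blood stem cells in marrow, was at 4752, 4741, 4900 and 4932 CPM in WT day 3 and 5725, 5885, 6351 and 5693 CPM in WT day 7. In the libraries labelled KO it fell from 826, 823, 870.4 and 874 to 136, 152, 162 and 148 CPM. WT rose a little and the libraries labelled KO fell from a level already several times lower, giving -2.80 ± 0.06 (edgeR quasi-likelihood, Benjamini-Hochberg adjusted p = 2.78e-24). Nes (nestin) was repressed in the libraries labelled KO only (-3.50 ± 0.10), and its WT days overlapped. The adhesion molecule Mcam fell in both genotypes, by a log2 of -0.77 in WT and -4.35 in the libraries labelled KO (-3.58 ± 0.14). Lepr, the leptin receptor of marrow stroma, rose in both, in WT from 0.052 to 1.83 CPM and in the libraries labelled KO from 4.52 to 10.3 CPM, so its log2 interaction of -3.81 ± 0.51 corresponds to 4.05 CPM as a difference of CPM. Txnip, an inhibitor of glucose uptake, was repressed in the libraries labelled KO only (-3.49 ± 0.09). In a bulk sample, fewer cells of a type and less RNA per cell cannot be told apart.

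RNA of cell cycle genes fell in both genotypes, and for most of them more steeply in the libraries labelled KO. Exit from the cell cycle itself was not measured. All 26 mitosis genes fell in both, by a median log2 change of -0.85 in WT and -2.33 in the libraries labelled KO, and all 26 had a called lower interaction, 23 at least 2-fold. All 27 DNA replication genes fell in both as well, and 24 had a lower and 2 a higher interaction (Mcm2 and Cdt1, named after their values were seen). Mki67, the Ki-67 proliferation marker, was at 203, 196, 199 and 211 CPM in WT day 3 and 125, 117, 108 and 112 CPM in WT day 7, and at 417, 449.9, 414 and 407 CPM in KO day 3 and 62.1, 63.3, 65.4 and 63.6 CPM in KO day 7. The libraries labelled KO were above WT at day 3 and below it at day 7, without overlap (-1.92 ± 0.06, edgeR quasi-likelihood, Benjamini-Hochberg adjusted p = 8.94e-22). Rrm2, a ribonucleotide reductase subunit, was at 449, 456, 440.4 and 446 CPM and 144, 139.7, 146 and 153 CPM in WT and at 194, 189.8, 192 and 199.7 CPM and 17.1, 19.6, 21.9 and 19.1 CPM in the libraries labelled KO. Its fold fall was steeper in the latter (-1.70 ± 0.06), while the fall in CPM was larger in WT, by 128 CPM. Of 22 genes of the p53 list, which holds Trp53 itself beside targets, 10 were higher and 6 lower, against 32.5% and 33.5% of all genes. At least 2-fold, 7 were higher and 2 lower, against 9.21% and 7.04%. Among the 7 were Trp53inp1 (2.91), Cdkn1a (2.48) and Bbc3 (1.24). Of the 2, Plk2, a kinase of the stress response, was at 73.5 CPM in WT at both days. Plk2 fell from 168 to 56.9 CPM in the libraries labelled KO.

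Dexamethasone was added to the day 7 cultures only, and many glucocorticoid targets rose in both genotypes. Of 21 genes 14 rose in WT and 14 in the libraries labelled KO, against 32.3% and 40.6% of all genes. The interaction was higher for 8 and lower for 9 (median log2 interaction -0.18), against 32.5% and 33.5% of all genes. At least 2-fold, 2 were higher and 2 lower, against 9.21% and 7.04%. Tsc22d3 (GILZ), a direct receptor target, was at 41.01, 41.7, 43.2 and 44.4 CPM in WT day 3 and 363, 351, 351 and 358 CPM in WT day 7, and at 37.7, 32.3, 36.6 and 34.7 CPM in KO day 3 and 534, 532, 514 and 493 CPM in KO day 7. It rose in every library of both genotypes, a little more in those labelled KO (0.81 ± 0.06). Fkbp5, a cochaperone of the receptor, rose from 32.8, 33.9, 33.1 and 33.1 to 166, 165, 164 and 164 CPM in WT and from 98.3, 96.8, 93.6 and 98.1 to 302, 324, 321 and 308 CPM. Its fold was smaller in the libraries labelled KO (-0.61 ± 0.04) and its rise in CPM larger, by 85.6 CPM. Errfi1, a feedback inhibitor of the EGF receptor, rose in WT and fell in the libraries labelled KO (-2.28 ± 0.05). Zbtb16 (PLZF) was induced from 0.0503 to 14.7 CPM in WT and from 0.200 to 15.8 CPM, with a log2 interaction of -1.74 ± 0.59 and 0.925 CPM as a difference of CPM.

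Interferon-stimulated genes rose in both genotypes. Of 28 genes 24 rose in WT and 27 in the libraries labelled KO, and 26 had a called higher and 1 a lower interaction, 24 and 0 at least 2-fold (median log2 interaction 2.00). Usp18, the brake on interferon signalling, was at 2.43, 2.01, 2.32 and 2.38 CPM in WT day 3 and 17.6, 17.96, 13.7 and 17.6 CPM in WT day 7, and at 0.369, 0.566, 0.157 and 0.947 CPM in KO day 3 and 41.4, 37.4, 24.9 and 40.2 CPM in KO day 7. Irf7, the factor that amplifies the response, was at 4.37, 3.999, 3.70 and 3.90 CPM and 14.1, 18.2, 13.9 and 14.5 CPM in WT, and at 0.482, 0.512, 0.880 and 2.68 CPM and 58.3, 54.2, 37.1 and 55.6 CPM in the libraries labelled KO. Library 8 was the highest of KO day 3 and library 15 the lowest of KO day 7 in both genes, and the genotypes exchanged their order between the days (interactions 3.27 ± 0.50 and 3.62 ± 0.49, adjusted p = 9.96e-06 and 7.85e-06 by edgeR's quasi-likelihood test). Macrophage markers went the other way. Of 18 measured, 10 had a lower and 2 a higher interaction, 14 fell in the libraries labelled KO, and Lyz2 (lysozyme) went from 19.7 to 6.70 CPM there and from 74.9 to 107 CPM in WT.

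Cartilage genes had 9 higher and 0 lower interactions among 13 measured of 18 listed, 8 at least 2-fold (median 1.46). That median is the value of Acan, whose interaction was not called. Col2a1 fell in both genotypes, by a log2 of -2.52 in WT and -1.14 in the libraries labelled KO. Both are named after their values were seen. The summed level of the list was 4571 to 5131 CPM in WT day 3 and 1027 to 1091 in WT day 7. In the libraries labelled KO it was lower, at 243 to 278 CPM at day 3 and 666 to 682 at day 7. Sox9, the master regulator of cartilage, fell from 54.2 to 29.96 CPM in WT and rose from 17.9 to 33.3 CPM in the libraries labelled KO (1.75 ± 0.09). Comp, a cartilage matrix protein, rose in both, to 1.64 CPM in WT and 38.7 CPM in the libraries labelled KO. Fat cell genes were mixed, 8 higher and 4 lower among 15. Pparg, the master regulator of fat cells, fell in WT from 51.8 to 26.8 CPM and had KO means of 10.56 and 11.96 CPM (1.13 ± 0.08). Of 7 measured osteoclast markers 5 were higher, among them the matrix protease Ctsk (2.86 ± 0.07), which stromal cells also express. Fmod (fibromodulin), a small proteoglycan that binds collagen, rose from 148 to 282 CPM in WT and from 76.1 to 1673 CPM in the libraries labelled KO (3.53 ± 0.08). Its relative Lum was at 0 counts in WT day 3, at 1.27 CPM in WT day 7 and at 1.25 CPM in KO day 3 and 38.4 CPM in KO day 7. The log2 interaction of Lum was negative (-3.62), but it rests on the 0 counts of WT day 3 and turned positive with a prior count of 2. The collagenase Mmp13 rose from 273 to 1070 CPM in WT and from 17.6 to 188 CPM, so its log2 interaction of 1.45 ± 0.10 corresponds to -626 CPM as a difference of CPM.

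Genes of ribosome biogenesis and of lipid synthesis had small interactions. Of 29 ribosome biogenesis genes 15 were lower and 3 higher, none at least 2-fold, and Myc had -0.55 ± 0.05. Of 26 genes of sterol and fatty acid synthesis 15 were lower and 6 higher, none at least 2-fold. Of 20 AP-1 and immediate early genes 13 were higher and 6 lower. Cytokine genes had 6 higher and 8 lower among 20, and metalloproteases and inhibitors 12 and 9 among 22. In the parathyroid hormone and cAMP list 4 were higher and 4 lower among 13, and in the CDK inhibitor and cyclin list 2 and 8 among 15. Over all genes the shares were 32.5% higher and 33.5% lower, and the Wnt, cytokine and cAMP counts are near them. At least 2-fold, 4 cytokine genes were higher and 5 lower, and 4 and 3 genes of metalloproteases and inhibitors. For AP-1 genes these counts were 3 and 2, for cAMP genes 1 and 0, and for CDK inhibitors and cyclins 1 and 3. The shares over all genes at that size were 9.21% higher and 7.04% lower.

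**Figure D4:**
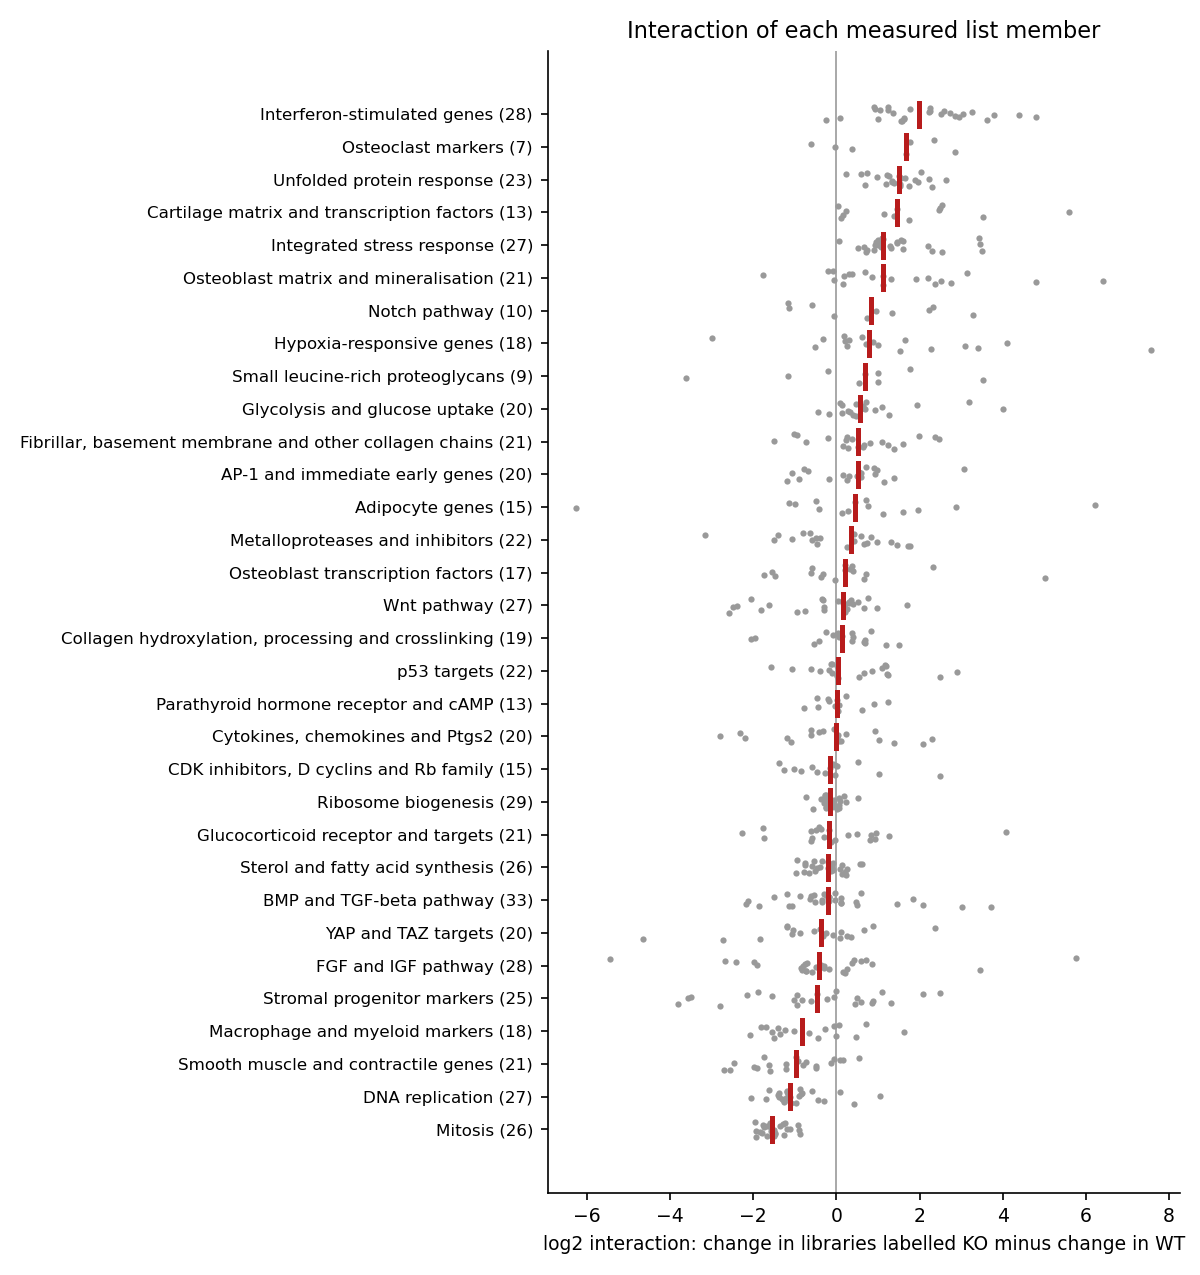
Each point is the log2 interaction of 1 measured gene (x axis) of the list named on the y axis, with the number measured in brackets, and the red bar is the median of the list; lists of under 7 measured genes are left out. All 23 unfolded protein response genes lie right of 0 and all 26 mitosis genes left of it, while the Wnt, p53 and glucocorticoid lists spread to both sides.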

How the data were processed

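The 16 libraries were read as poly(A)-selected, strand-specific paired ends, per the labels' protocols. The authors deposited whole-read counts for each gene, to which no scaling had been applied. Beside them are columns headed CPM, a deposited signal equal to the count over 1 constant per library, used here only as an alternative scaling. Deposited gene lengths were not used in any test. STAR 2.4.2a, featureCounts, edgeR and mm10 are named in the submitters' processing notes without their roles. For the annotation and for reads that match several gene copies, the choice was not given in the sources used here. Hence near-identical genes are uncertain singly.

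The table's lowest summed count per gene was 105. Date-like symbols (22) and a repeated symbol (1) stayed in the fit and are not named. The filter filterByExpr removed 0 genes, and 0 columns of values lacked a library. Total counts ran from 31285188 to 47635039. The fit used R 4.3.3 and edgeR 4.0.16 (robust quasi-likelihood, 4 group means, 12 residual degrees of freedom) with trimmed mean of M values (TMM) scaling, whose factors lay between 0.949 and 1.05. Common dispersion came to 0.00181, or a CV of 4.25% between libraries, so small differences pass the test. A p-value is 2-sided, and fitted log2 values use a prior count of 0.125. Standard errors are approximate (delta method) and unreliable at few counts. CPM are counts over the TMM-scaled library size. WT day 3 libraries 1 and 1b and WT day 7 libraries 10 and 10b share a number in their titles. Their chi-square per degree of freedom was 2.89 and 4.74, beyond sampling noise, and they entered as separate libraries. That of KO day 7 library 15 was 17.9 with library 13 and 16.5 with library 14, the widest pairs of any group.

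The 35 gene lists, the classes and the members were chosen with earlier results of these data known. The text draws names from the 10 highest and 10 lowest interactions with at least 10 CPM in the highest group mean, from the 8 widest genes of each class (4 where the other genotype was under 0.5 CPM), from up to 4 called members of each list with at least 5 CPM, and from anchor genes such as Runx2, Alpl and Mki67. Other genes are said to have been chosen after their values were seen. Lists are described by counts and medians, without a set test. Alternatives were limma 3.58.1 (voom), DESeq2 1.42.0, other scalings and filters, summed libraries, a test against a 1.5-fold interaction (glmTreat), chromosome centring, other class limits and leaving out each library. The model was tested on simulated data.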

Additional observations from a re-analysis of the deposited data

Results flagged for a closer look

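The change from day 3 to day 7 differed between the genotype labels, by a test of the difference itself, at least 2-fold for 2189 genes. It was higher in the libraries labelled KO for 1241 genes and lower for 948.

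For 32 genes given library by library and for the total counts, 132 groups of 4 values were looked at for 1 library far from the other 3 of its group. There were 10 such groups (7.58%), none of them in the total counts, and chance gives about 1 in 20. In WT day 3, library 3 was the lowest for Creld2 at 52.3 CPM, and library 1 was the highest for Plin4 at 8.26 CPM. In WT day 7, library 10 was the highest for Trib3 at 3.44 CPM and for Irf7 at 18.2 CPM, library 11 was the highest for Car9 at 0.481 CPM, and library 10b was the lowest for Alpl at 355 CPM and for Usp18 at 13.7 CPM. In KO day 3, library 6 was the lowest for Ndrg1 at 48.3 CPM and the highest for Peg3 at 22 CPM. In KO day 7, library 13 was the lowest for Lrrc15 at 15.4 CPM.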

How the results depend on the processing

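No paired analysis was possible because the library titles share no replicate number between groups. Against a 1.5-fold interaction (glmTreat), 1569 genes were called higher in the libraries labelled KO and 1225 lower. With a log2 change of 1.5 asked of a moved gene, 24 and 11 genes switched direction (up in KO, up in WT), 268 and 36 were induced in KO only and in WT only, 159 and 39 repressed in KO only and in WT only, and 187 shared. With under 0.25 asked of a still gene, 297 and 39 were induced and 161 and 50 repressed in 1 genotype only. With at least 1 CPM in every group mean, a limit added after the data were seen, 14 and 9 switched, 47 were induced in WT only, 174 and 32 were repressed in KO only and in WT only, and 209 were shared. Leaving out 1 library at a time kept each count within 1.5 times: 4245 to 4420 and 4378 to 4493 called, 1221 to 1257 and 918 to 948 at least 2-fold, 52 to 60 and 22 to 29 switched. As a difference of CPM the sign turned for Acp5 (-3.35), Ak4 (-1.13), Fkbp5 (85.6), Gpx3 (-100.1), Igfbp2 (64.8), Igfbp5 (1.14), Lepr (4.05), Lum (35.9), Mmp13 (-626), Notch3 (-3.19), Pde4b (-9.69), Rrm2 (128), Slc16a3 (-14.6), Trp53inp1 (-2.38) and Zbtb16 (0.925), by the construction of that scale, and Lum also turned with a prior count of 2 (0.27). With the authors' library sizes the median interaction was 0.08 and the median WT day change -0.10, and 58.2% of called genes were higher against 49.2% with TMM scaling. With total counts it was 43.8%. Of the 82 genes that switched direction, 80 did so with DESeq2, 78 with limma-voom, 65 with at least 1 CPM asked in 4 libraries and 72 with a prior count of 2. Of the 57 and 25 genes that switched direction, all but the 14 and 9 had a group mean under 1 CPM, where few counts stand behind a fold.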

Other observations

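Insulin-like growth factor (IGF) genes held wide interactions. Igfbp2, a binding protein of IGF, rose from 1.16 to 37.2 CPM in WT and from 14.01 to 115 CPM in the libraries labelled KO, a log2 interaction of -1.98 ± 0.13 (SE). Igfbp5, another binding protein, rose in WT from 0.220 to 1.83 CPM and had KO means of 12.7 and 15.4 CPM. The ligand gene Igf1 was at 41.0 and 41.5 CPM in WT and fell from 21.0 to 12.4 CPM in the libraries labelled KO (log2 interaction -0.76 ± 0.10). Il1rn, the interleukin 1 receptor antagonist, fell from 119.6 to 55.4 CPM in WT and rose from 1.89 to 3.64 CPM in the libraries labelled KO. Tnfaip3, a brake on NF-kappaB, rose from 16.01 to 22.2 CPM in WT and fell from 52.5 to 14.6 CPM in the libraries labelled KO. Values are group means (n = 4).

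By chromosome, the median log2 interaction ran from -0.097 on chromosome 7 to 0.12 on chromosome 17.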
